A study of Mus musculus with 106 samples.

Results

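The retinoid genes described here were chosen by their symbols, with their levels in these same libraries already known: Rbp4, Stra6, Lrat, Aldh1a1, Aldh1a2, Cyp26a1, Cyp26b1 and Rarb. All 8 are listed in each of the 4 deposited count tables, which hold between 21647 and 23420 genes. Male wild-type C57BL/6J mice (strain given as C57BL/6 in part of the labels), aged 11 weeks (12 for quadriceps and the 34 °C experiment) in the labels, were kept at 10 °C for 2 weeks after stepwise cooling, at 34 °C for 4 weeks, or at 22 °C as controls. RNA of whole tissues was sequenced. The 10 °C experiment covered 11 tissues: interscapular brown fat (iBAT), inguinal subcutaneous fat (ingSAT), perigonadal visceral fat (pgVAT), liver, ileum, spleen, brain without hypothalamus, hypothalamus, bone marrow, spinal cord and quadriceps. The 34 °C experiment is given here for iBAT, liver, ileum, brain and quadriceps, and its ingSAT and pgVAT were not analysed here. Groups held 3 libraries, except bone marrow (6), spinal cord (5) and the 22 °C quadriceps group (6, shared by both temperatures). Each library pooled a pair of mice in most tissues, whereas bone marrow and spinal cord libraries came from single mice. The methods state that the warm samples were pooled, while a supplementary sample sheet lists single mice for most of the iBAT libraries of that experiment. The mice of the 10 °C and 34 °C experiments came from different breeders, and most tissues were sequenced with different kits in the 2 experiments. Each temperature is therefore set against the 22 °C libraries of its own experiment, except in quadriceps, where both are set against the same 6. The sample labels do not assign these 6 to an experiment, so the quadriceps comparisons can mix controls of both. Column names group 3 of them with the cold and 3 with the warm libraries, and results with each set are given for Rbp4 at 10 °C and for Cyp26b1.

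Retinol, the alcohol form of vitamin A, leaves the liver bound to RBP4 and can enter cells through the receptor STRA6. LRAT turns retinol into esters for storage, above all in liver stellate cells, and also acts in enterocytes on newly absorbed retinol. ALDH1A1 and ALDH1A2 oxidise retinal to retinoic acid, CYP26A1 and CYP26B1 degrade retinoic acid, and RARB is one of the nuclear receptors that retinoic acid activates. Rarb and Cyp26a1 are themselves textbook targets of retinoic acid receptors.

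The promoters of the 8 genes were read from RefSeq on GRCm38.p6, which is the assembly also called mm10. A total of 13 windows of 300 bases (250 before to 50 after a gene start) matched the 8 genes. They were searched on both strands for pairs of the half-site AGGTCA in full, its known variant spelled AGTTCA, the further variant spelled GGGTCA or the last one allowed here, GGTTCA, in the same orientation with 5 or 2 bases between them, the layout known from retinoic acid response elements. Such a pair was found in windows of 2 of the 8 genes, both with 5 bases between the half-sites. Of all 32851 windows in the reference, 32 (0.0974%) held a pair with that spacing and 120 (0.365%) held a pair with either spacing. The windows of Rarb, the receptor, and Cyp26a1, a clearance enzyme, are shown because they hold the pair, with the half-sites in capitals.
Rarb, chr14:16575427-16575726, minus strand: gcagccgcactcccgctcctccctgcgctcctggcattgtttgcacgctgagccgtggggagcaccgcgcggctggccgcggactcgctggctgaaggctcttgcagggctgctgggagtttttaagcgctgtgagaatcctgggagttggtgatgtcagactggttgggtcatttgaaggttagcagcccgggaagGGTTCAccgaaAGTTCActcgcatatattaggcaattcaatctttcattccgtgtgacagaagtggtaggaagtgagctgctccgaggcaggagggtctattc
Cyp26a1, chr19:37697558-37697857, plus strand: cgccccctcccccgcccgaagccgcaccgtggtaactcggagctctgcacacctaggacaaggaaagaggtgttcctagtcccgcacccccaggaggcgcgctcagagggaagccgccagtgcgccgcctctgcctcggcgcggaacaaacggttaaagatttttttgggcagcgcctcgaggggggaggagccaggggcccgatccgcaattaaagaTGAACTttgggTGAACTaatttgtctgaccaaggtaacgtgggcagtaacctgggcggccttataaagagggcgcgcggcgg
In Rarb the pair reads along the gene and begins 53 bases upstream of this start. In Cyp26a1 it lies 32 bases upstream on the opposite strand. These are matches of letters and not measured binding, and Cyp26a1 was below the count filter in the iBAT comparison where Rarb was called.

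Levels are given as CPM, the reads of a gene scaled to the same total in every library. Library totals ranged from 4262403 to 62880248 reads. Several libraries stood apart from their labels. The second 22 °C brain library of the 10 °C experiment held 61533 CPM over 5 hepatocyte genes, against 733 to 1102 CPM in the other brain libraries of that experiment, and its Alb level was 50363 CPM against 1.47 to 6.94. In pgVAT at 10 °C, replicates 1 and 3 held 12045 and 11568 CPM over 6 epididymis genes and replicate 2 held 2.11, while the 22 °C libraries held 389 to 2522. In quadriceps, the 22 °C library M1 held 1698 CPM of 5 pancreas acinar genes, against at most 8.71 in the others, and the 10 °C library M1 held 133 CPM of the epididymis genes. Bulk tissue cannot tell fewer cells of a type from less RNA per cell, and this holds for every level below.

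At 22 °C, the liver had the highest mean of 4 of the 8 genes among the 8 tissues sequenced together, with or without the liver-marked brain library. The orders of these 4 genes are given without that library. Rbp4 stood at 1484 ± 123 CPM in liver (SD, n = 3), above pgVAT (200 ± 59.6), ingSAT (146 ± 15.1) and iBAT (47 ± 4.23), and below 10 CPM in brain without replicate 2, hypothalamus, ileum and spleen. Only pgVAT and ingSAT, and ileum and spleen, overlapped among neighbours in this order. With replicate 2 the brain mean of Rbp4 was 361 ± 613 CPM in place of 7.57 ± 1.07 (n = 2). Aldh1a1 was at 1454 ± 89.4 CPM in liver and 318 ± 93.4 in pgVAT, and iBAT was lowest with 29.2 ± 7.05. Between them, ileum, brain, ingSAT, spleen and hypothalamus followed each other from 152 to 90.5 CPM with overlapping libraries.

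Lrat was at 40.2 ± 3.53 CPM in liver, 27.3 ± 6.29 in ileum and 15.3 ± 0.783 in spleen, with no overlap between these neighbours. It was at most 2.14 CPM in the other tissues apart from the liver-marked brain library, where it read 39.2. Cyp26a1 was at 17.1 ± 4.97 CPM in liver and otherwise at most 0.539 CPM outside that same brain library, where it read 27.9. In ileum at 22 °C Cyp26a1 had no read in any of the 3 libraries. Counted per kilobase of exon, the liver level was 1105 CPM for Rbp4, 295 for Aldh1a1, 8.6 for Cyp26a1 and 7.51 for Lrat, so the carrier stood above the synthesis enzyme, and both stood above the clearance and storage enzymes.

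The other 4 genes had their highest mean outside the liver. Stra6 had no read in the 3 liver libraries, was at 0.0724 ± 0.0146 CPM in iBAT, and reached 4.8 ± 0.174 CPM in brain without replicate 2 (n = 2) and 3.1 ± 0.272 in hypothalamus. Aldh1a2 was likewise lowest in liver at 0.24 ± 0.0616 CPM, and brain, hypothalamus and pgVAT overlapped at the top with means of 14.8, 12.3 and 11.9 CPM. Aldh1a1 and Aldh1a2, which catalyse the same step, therefore had opposite extremes: the liver was highest for the one and lowest for the other. Cyp26b1 was at 14 ± 1.6 CPM in brain, 13 ± 4.44 in ingSAT and 12.4 ± 4.09 in liver, which overlapped, and the remaining 5 tissues lay between 6.56 and 2.81. Rarb ran from 26.2 ± 6.34 CPM in iBAT and 25.1 ± 2.8 in brain, which overlapped, through 14.8 ± 2.01 in hypothalamus to 5.18 ± 0.171 in ileum. These brain values of Aldh1a2, Cyp26b1 and Rarb include replicate 2. Without it they were 16.9 ± 0.634, 13.1 ± 0.956 and 26.7 ± 0.152 CPM (n = 2). Brain then had the highest mean of Rarb too, still overlapping iBAT.

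**Figure D1:**
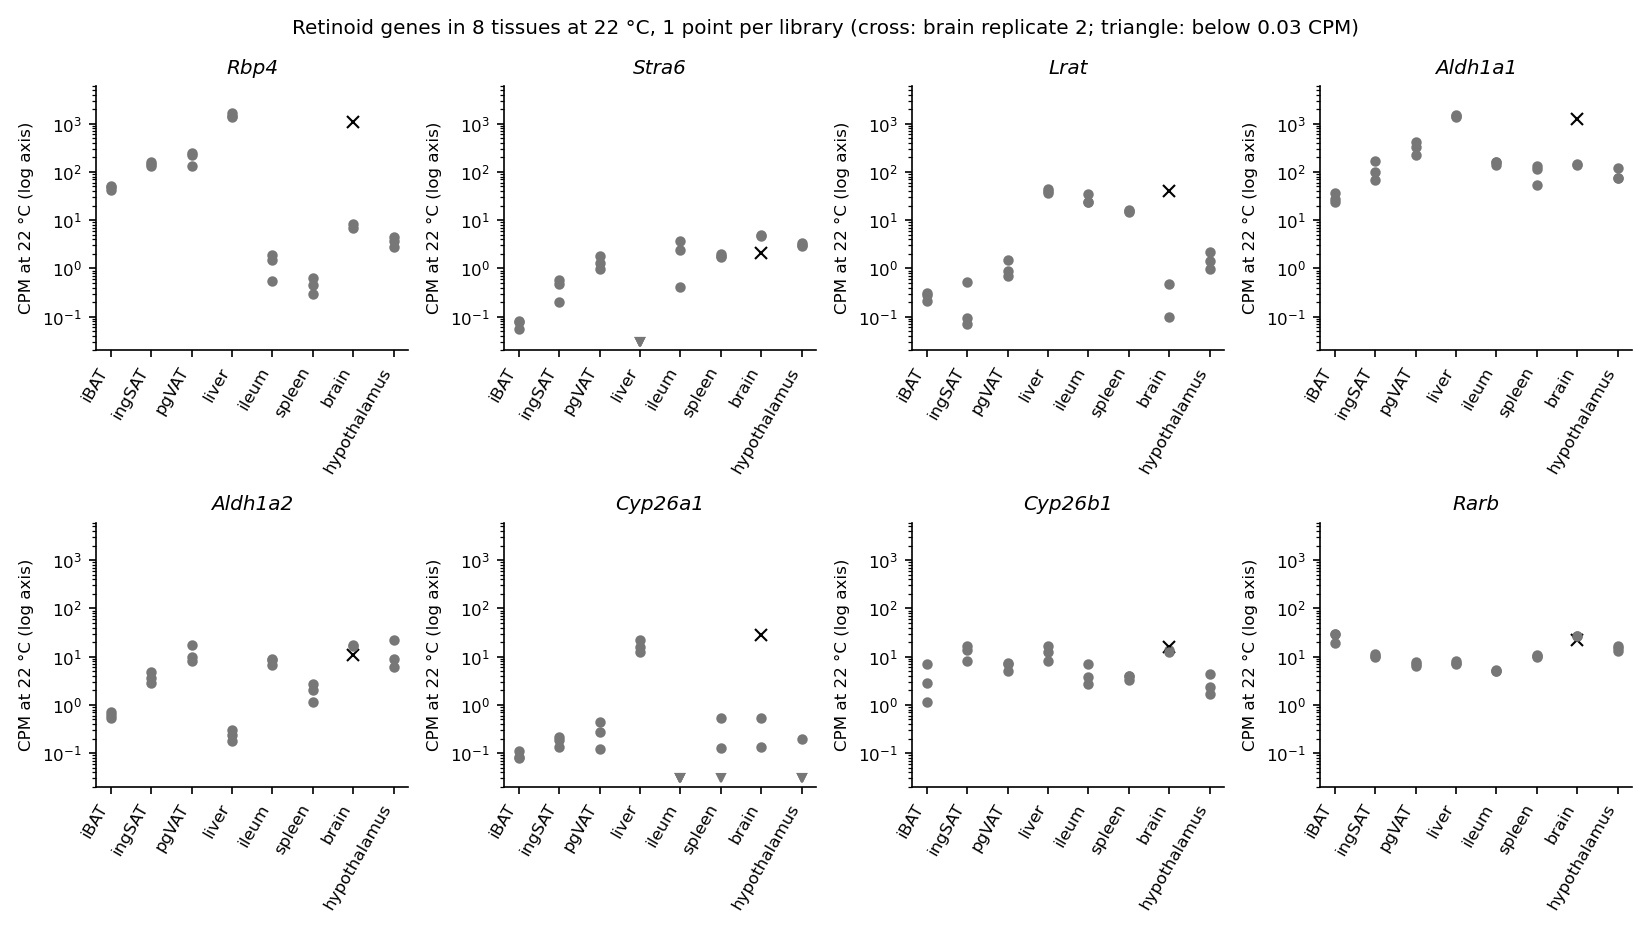
CPM (log axis) of each retinoid gene in the 22 °C libraries of the 8 tissues sequenced together, 1 point per library; a cross marks brain replicate 2 and a triangle a value below 0.03 CPM. Rbp4, Aldh1a1, Lrat and Cyp26a1 are highest in liver and also high in the crossed brain library, while Stra6 has no read in liver.

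The genes whose 22 °C profile was most like that of a retinoid gene were ranked by Pearson's r of log2(mean CPM + 1) over the 8 tissue means, among 17187 genes with at least 1 CPM in a tissue. CPM was scaled here by the library total alone, without TMM. With so few points that share libraries, r is a description. For Rbp4 they were Acsm5 (r = 0.988), Inmt (0.984) and Tst (0.977), for Lrat Pklr (0.971), Mcm10 (0.964) and Hspa5 (0.964), and for Aldh1a1 Ebpl (0.959), Pik3c2g (0.952) and Qsox1 (0.940). For Stra6 they were Omp (0.974), Lxn (0.973) and Nsd2 (0.973), and for Rarb Mrpl58 (0.973), Hspb3 (0.958) and Myadml2 (0.951). For Cyp26a1 they were AI182371 (0.999), Cyp2c67 (0.998) and Slc22a30 (0.998), and for Cyp26b1 Cyp2f2 (0.920), Nox4 (0.899) and Wfdc21 (0.895). These ranks include brain replicate 2. Without it the 3 names stayed the same for Stra6 and Rarb and changed entirely for Cyp26a1 and Cyp26b1. For Rbp4, Tmem205 (0.988) then came first and Tst dropped out, and for Lrat, Ppfibp2 (0.987) came first and Hspa5 dropped out. For Aldh1a1, Arhgef37 (0.935) took the place of Qsox1.

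Each temperature was then compared with the 22 °C libraries of its experiment, or with the 6 shared ones in quadriceps, in a fit over all genes of the tissue. A gene was called where its unadjusted p was at most 0.05 and its fold above 1.5, the limits the study used, and Benjamini-Hochberg adjusted p-values over all genes tested are given beside them. Because the 8 genes were chosen with these contrasts known, the values describe them and are not independent evidence. Over the 11 tissues at 10 °C, 63 of the 88 pairs of gene and tissue passed the count filter and were tested, and 9 were called (4 higher, 5 lower), where 4.94% of all tests were called. None of the 9 had an adjusted p under 0.05 by edgeR's quasi-likelihood test. In their tissues 1122 of 12793 genes passed that limit in iBAT, 926 of 13977 in ingSAT, 9 of 14081 in ileum and 0 of 14416 in brain. Over the 5 tissues at 34 °C, 27 of 40 pairs were tested and 5 were called (4 higher, 1 lower), against 5.33% of all tests, and 3 of them, all in iBAT, also passed the adjusted limit. Filters on low counts can favour genes that are high in 1 group, so these counts are not shares of all members.

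**Figure D2:**
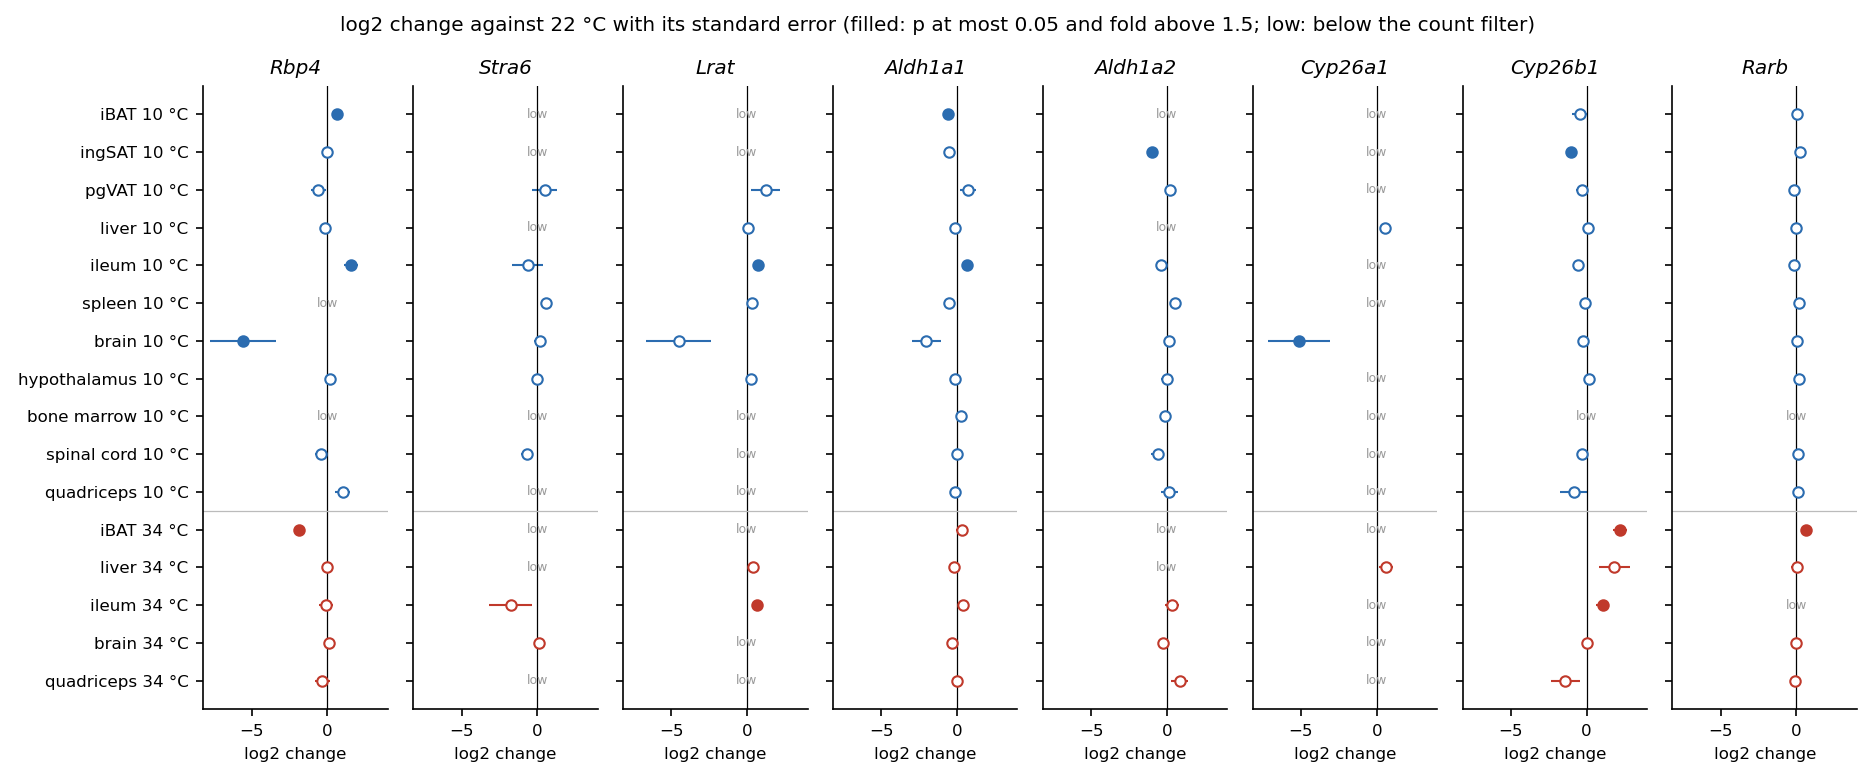
log2 change of each retinoid gene against 22 °C with its standard error, by tissue (blue 10 °C, red 34 °C); filled points have p at most 0.05 and a fold above 1.5, and "low" marks genes below the count filter. The Rbp4 and Cyp26a1 points far to the left are brain at 10 °C, where 1 of the 3 control libraries carries liver genes.

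The calls that passed the adjusted limit were in brown fat of warm mice, where the carrier Rbp4 fell and the clearance enzyme Cyp26b1 and the receptor Rarb rose. In iBAT at 34 °C, 19.4% of the 12318 genes tested were called (15.6% with an adjusted p under 0.05), and 48.7% had groups that did not overlap, so calls of this kind were common in this tissue. Of the 4 retinoid genes tested there, 3 were called. Rbp4 was at 131, 174 and 127 CPM at 22 °C and at 31.5, 51.7 and 35 CPM at 34 °C. Every warm library lay below every control. The log2 change was -1.87 ± 0.21 (SE, n = 3 and 3; edgeR quasi-likelihood test, adjusted p = 0.00203), a 3.66-fold lower level.

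Cyp26b1, at 0.478, 0.743 and 0.465 CPM in the controls, was at 2.05, 4.11 and 1.64 CPM in the warm libraries. All 3 warm libraries were higher, by 2.20 ± 0.44 on the log2 scale (adjusted p = 0.0121 by the edgeR test). Its control mean of 0.562 CPM was under the count filter, an average log2 CPM above 0 over the libraries compared, so it was tested only through the group where it was high. Rarb was at 16.3, 10.2 and 12.9 CPM at 22 °C and at 19.5, 21.9 and 20 CPM at 34 °C, again without overlap. Its change of 0.64 ± 0.17 (fold 1.56, adjusted p = 0.0307 by the edgeR test) lay just above the fold limit, and it dropped below that limit without the 22 °C replicate 2 (0.49) or the 34 °C replicate 2 (0.57).

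Aldh1a1 showed how 1 control library could set a value. Its warm libraries read 19, 13.6 and 13.7 CPM and its controls 7.47, 21 and 7.67, so the groups overlapped and the change was 0.36 ± 0.40. The high control is the library that also held 4232 CPM of skeletal muscle genes, against 2.8 and 8.08 in the other controls and 3311, 894 and 1020 in the warm libraries. Without it the change in Aldh1a1 was 1.03, and the gene was called. Stra6, Lrat, Aldh1a2 and Cyp26a1 were below the count filter in this comparison, with Stra6 at most at 0.0297 CPM.

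Other genes of the pathway in warm iBAT came from a list of 44 retinoid genes, of which 36 are not among the 8. Of these 36, 19 were tested and 8 were called (3 higher, 5 lower), all with adjusted p under 0.05 by the edgeR test and without overlap. The median over the 19 was -0.12 on the log2 scale, beside 0.02 over all genes. Dhrs3, which reduces retinal back to retinol, was at 89 ± 14 CPM at 22 °C and 178 ± 28.5 at 34 °C (adjusted p = 0.00563). The receptor gene Rarg went from 23.1 ± 2.64 to 40.1 ± 3.36 CPM (adjusted p = 0.00384).

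The 5 that fell were Dgat1 (457 ± 68 to 233 ± 43.6 CPM), which can also esterify retinol, Dhrs4 (168 ± 24.2 to 103 ± 7.43), Dhrs9 (20.2 ± 4.45 to 3.46 ± 2.85), Aldh1a7 (160 ± 26.8 to 67 ± 37.5) and the receptor partner Rxrg (55.1 ± 10.5 to 34.7 ± 6.98). Marker genes of several cell types moved with the temperature in the same libraries. The 4 brown adipocyte genes summed to 10079 to 13688 CPM at 22 °C and to 5301 to 6641 CPM at 34 °C, and the macrophage genes to 66.1 to 111 and to 122 to 168 CPM. A list of fibroblast-rich meninges genes, such as Dcn and Lum, summed to 383 to 543 CPM at 22 °C and to at least 614 CPM in each library at 34 °C. Their part in the changes was not tested.

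In cold iBAT, 2 of the 4 genes tested were called, where 13.3% of 12793 genes were called, and neither passed the adjusted limit. Rbp4 was at 48.4, 50.3 and 42.2 CPM at 22 °C and at 87.2, 44.7 and 86.1 CPM at 10 °C. Replicate 2 of the cold group stayed within the control range, and the change was 0.63 ± 0.23 (adjusted p = 0.11 by the edgeR test), with a call lost without cold replicate 1 (0.50) or 3 (0.50) or without control replicate 3 (0.56), or with library size in place of TMM (0.49). Aldh1a1 was at 37.1, 27 and 23.6 CPM at 22 °C and 23.8, 17.2 and 15.8 CPM at 10 °C, a change of -0.61 ± 0.21 (adjusted p = 0.0901) that was -0.41 without control replicate 1. That call was also lost without cold replicate 2 (-0.54) or 3 (-0.50).

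The 2 other tested genes did not meet the limits in cold iBAT. Rarb read 29.6, 30.1 and 18.8 CPM in the controls and 26.4, 27.2 and 26.5 CPM in the cold libraries, a change of 0.03 ± 0.18. Cyp26b1 read 6.94, 2.91 and 1.13 CPM and then 2.67, 2.24 and 2.73 CPM, so its controls spread more than the difference between groups, and it was called without control replicate 3 (-0.92). The 22 °C level of Rbp4 itself differed between the experiments, with a mean of 47 CPM beside the cold group and 144 CPM beside the warm group, and the breeder, the kit and the sequencing site cannot be told apart there.

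Of the other pathway genes in cold iBAT, 3 of 20 were called, where 13.3% of all 12793 genes were. The adjusted limit was passed by 2 of them, and by 1122 of all genes. Rbp7, a retinol-binding protein gene, was at 11 ± 2.22 CPM at 22 °C and 19.3 ± 2.62 CPM at 10 °C (0.81 ± 0.18, adjusted p = 0.0217 by the edgeR test). Ttr is the partner of RBP4 in blood and mainly a liver product. It was at 3.2, 3.75 and 6.46 CPM at 22 °C and at 0, 0.34 and 0 CPM at 10 °C. Its cold level was under the count filter, so it was tested only through the group where it was high. In the same libraries Alb was at 33.6, 43 and 62.6 CPM at 22 °C and at most 0.408 CPM at 10 °C, and the part of liver RNA in the Ttr difference was not tested. The brown adipocyte genes summed to 7542 to 12350 CPM in the controls and 13422 to 17187 in the cold libraries, and the muscle genes to 5649 to 8159 and to 2222 to 4682.

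**Figure D3:**
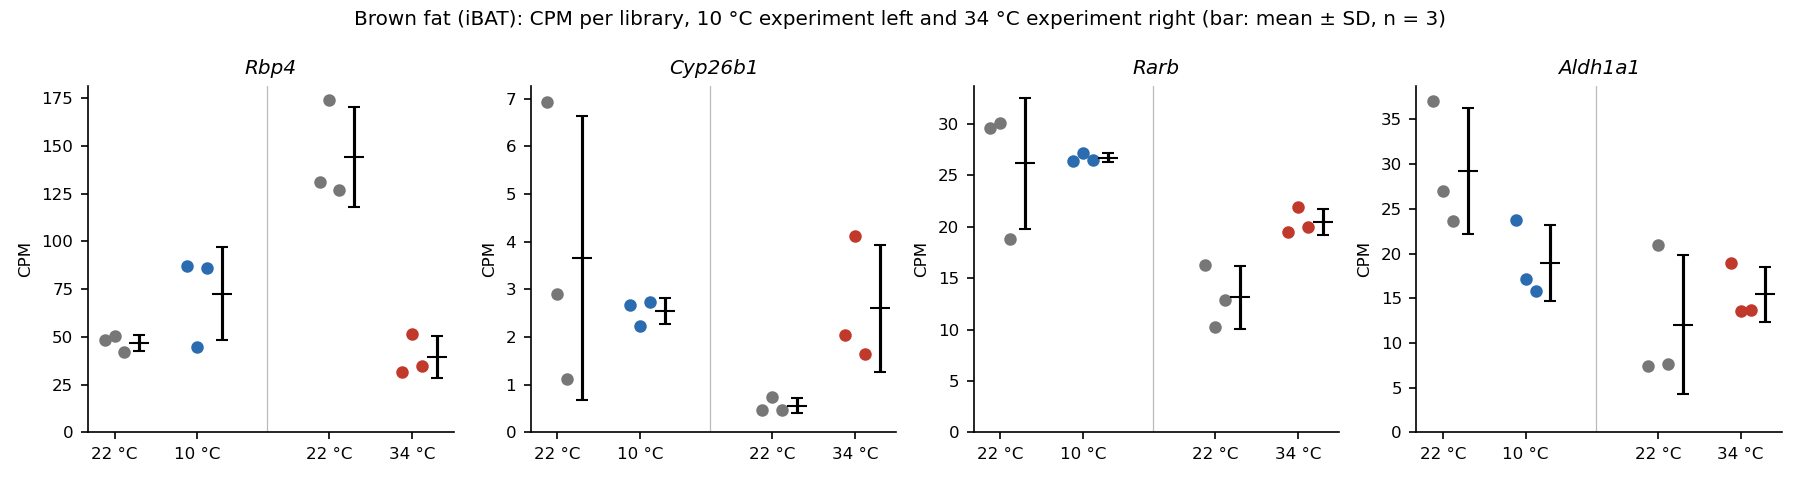
CPM per library in iBAT for 4 retinoid genes, with the mean and SD (n = 3) beside each group; grey 22 °C, blue 10 °C, red 34 °C. The Rbp4 libraries at 34 °C lie between 31.5 and 51.7 CPM and all below their controls, while those at 10 °C include 1 library of 44.7 CPM within the control range.

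The storage enzyme Lrat was called higher in the ileum at both temperatures. At 10 °C, where 2.71% of 14081 genes were called (1.44% higher) and 23.6% had groups without overlap, 3 of the 7 retinoid genes tested were called and all 3 were higher. Lrat was at 34.5, 23.6 and 23.7 CPM at 22 °C and at 41.7, 50.4 and 40.2 CPM at 10 °C, a change of 0.70 ± 0.17 (adjusted p = 0.132 by the edgeR test). Every cold library was above every control, but without cold replicate 2 the change was 0.58 and below the fold limit.

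Aldh1a1 was at 136, 159 and 160 CPM in the ileum controls and at 234, 268 and 221 CPM at 10 °C. The 0.67 ± 0.10 change had an adjusted p of 0.0608 by the edgeR test, and without cold replicate 2 it was 0.58. Reads of Aldh1a1 and its close paralogue Aldh1a7 can be hard to separate, and Aldh1a7 also read higher, at 17 ± 2.23 and 25.9 ± 6.01 CPM, so the share of each is uncertain. Rbp4 was at 1.87, 0.544 and 1.49 CPM and at 5.11, 4.04 and 2.32 CPM (1.57 ± 0.45, adjusted p = 0.173), again without overlap but at a low level. Aldh1a2, Cyp26b1, Rarb and Stra6 were not called, with changes between -0.63 and -0.19, though Cyp26b1 was called without control replicate 2 (-0.83).

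Among the other pathway genes of the cold ileum, 5 of 28 were called, all higher, and none passed the adjusted limit by the edgeR test. Rbp2, the enterocyte retinol-binding protein that hands retinol to LRAT, was at 44.2 ± 6.91 CPM at 22 °C and 81.2 ± 1.45 at 10 °C (adjusted p = 0.0604), and the rest were Rbp7, Rdh16, Dhrs9 and Aldh1a7. The 28 genes had a median of 0.14 on the log2 scale beside -0.01 over all genes. The 5 enterocyte genes moved the same way, with sums of 9939 to 11214 CPM in the controls and 15471 to 16870 CPM in the cold libraries, while the goblet and Paneth genes summed to 16409 to 18552 and 17547 to 18000. The part of the enterocyte share in these values was not tested.

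At 34 °C the ileum had 2.83% of 13020 genes called (1.57% higher), 13.8% with groups without overlap and none with an adjusted p under 0.05 by the edgeR test, and 2 of the 6 retinoid genes tested were called. Lrat was at 11.9, 16.3 and 14.5 CPM at 22 °C and at 17.8, 24.3 and 24.4 CPM at 34 °C. The groups did not overlap, and the change was 0.64 ± 0.17 (adjusted p = 0.594). It fell under the fold limit without control replicate 1 (0.52) or warm replicate 2 (0.57) or 3 (0.55). Lrat is thus the gene called in the ileum in both experiments, which used separate mice and separate controls, with neither call passing the adjusted limit.

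Cyp26b1 rested on 1 warm library, at 1.5, 1.17 and 1.2 CPM in the controls and at 1.63, 4.6 and 1.86 CPM at 34 °C. Its change of 1.06 ± 0.44 was 0.44 without warm replicate 2, and the call was also lost without any 1 of the controls. That same library held the highest level of Rbp2 in its group, 1201 CPM, where the group's lowest was 181, and also of Adh1 with 283 CPM against a lowest of 26.9. Aldh1a1 was at 401, 437 and 353 CPM and at 379, 570 and 602 CPM, with overlap and a change of 0.38 ± 0.19. Of the other pathway genes, 4 of 28 were called, all higher: Rbp2, Bco2, Adh1 and Adh4. The enterocyte genes summed to 13407 to 19974 CPM at 22 °C and 15146 to 24264 at 34 °C, which overlapped.

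**Figure D4:**
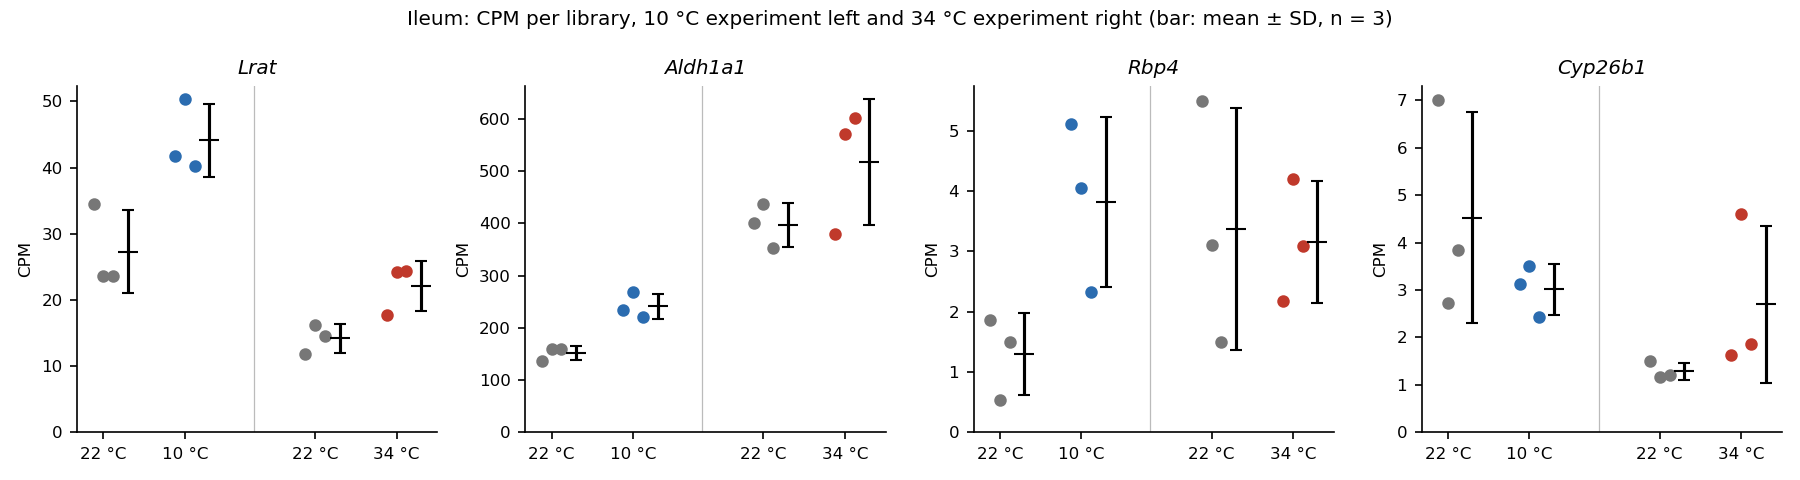
CPM per library in the ileum for 4 retinoid genes, with the mean and SD (n = 3) beside each group; grey 22 °C, blue 10 °C, red 34 °C. The Lrat libraries at 10 °C (40.2 to 50.4 CPM) and at 34 °C (17.8 to 24.4 CPM) each lie above their own controls, and 1 warm library carries the Cyp26b1 difference.

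In cold ingSAT the clearance enzyme Cyp26b1 and the synthesis enzyme Aldh1a2 were both called lower, and the other 3 tested genes were not called. This comparison had the highest share of calls at 10 °C, 16.3% of 13977 genes (9.14% lower), and 32.8% had groups without overlap. Cyp26b1 was at 16.9, 13.9 and 8.18 CPM at 22 °C and at 5.3, 6.55 and 6.73 CPM at 10 °C, without overlap, a change of -1.06 ± 0.29 (adjusted p = 0.0707 by the edgeR test). Aldh1a2 was at 4.87, 3.62 and 2.9 CPM and at 2.49, 1.66 and 1.63 CPM, a change of -0.98 ± 0.33 (adjusted p = 0.113). The Aldh1a2 call was lost without control replicate 1 (-0.76) or cold replicate 2 or 3 (both -0.84).

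Rbp4 was at 144, 133 and 163 CPM in the ingSAT controls and at 157, 129 and 137 CPM in the cold, a change of -0.05 ± 0.13 whose size was under the spread of either group. Aldh1a1 was at 68.8, 99.3 and 164 CPM and at 87.7, 61.6 and 79.3 CPM, and without control replicate 1 it was called (-0.79). Rarb differed by 0.22 ± 0.17. In the same libraries the brown adipocyte genes summed to 131 to 184 CPM at 22 °C and to 2205 to 2813 CPM at 10 °C, and the adipocyte genes to 24773 to 26988 and to 12741 to 19427. The meninges list, whose fibroblast genes also serve fat, summed to 5627, 3761 and 2002 CPM in the controls and to 2456, 1376 and 1619 in the cold. Its order in the controls is that of Cyp26b1 and of Aldh1a2. In the cold the library highest in these genes was the highest for Aldh1a2 but the lowest for Cyp26b1, and their part in the calls was not tested.

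Of the other pathway genes in ingSAT, 7 of 23 were called (3 higher, 4 lower), where 16.3% of all 13977 genes were. The adjusted limit by the edgeR test was passed by 2 of them, and by 926 of all genes. Rdh14, a retinol dehydrogenase gene, was at 22.4 ± 1.25 CPM at 22 °C and 37.8 ± 0.745 at 10 °C (0.76 ± 0.10, adjusted p = 0.0119). Rarg was at 57.8 ± 9.36 and 33.8 ± 1.75 CPM (-0.78 ± 0.15, adjusted p = 0.0279), the opposite sign to its change in warm iBAT. Aldh1a3, the third enzyme of retinoic acid synthesis, went from 30.6 ± 15.3 to 8.52 ± 2.28 CPM and missed the adjusted limit (adjusted p = 0.0514).

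In cold pgVAT none of the 7 tested genes was called, where 7.96% of 14863 genes were called, but several varied with epididymis RNA among the cold libraries. Lrat was at 0.9, 0.693 and 1.52 CPM at 22 °C and at 3.26, 0.211 and 3.68 CPM at 10 °C. Stra6 was at 1.84, 0.97 and 1.3 CPM and at 2.38, 0.281 and 3.26 CPM, and Aldh1a1 at 322, 410 and 223 CPM and at 405, 258 and 899 CPM. In all 3 genes, cold replicates 1 and 3, which hold the epididymis genes, were above cold replicate 2, which hardly holds them. Rbp4 went the other way, with 121 and 56.8 CPM in cold replicates 1 and 3 and 217 in replicate 2, beside 132, 223 and 244 CPM at 22 °C. The controls had epididymis sums of 2522, 687 and 389 CPM, with Lrat highest in replicate 3, Aldh1a1 in replicate 2 and Stra6 in replicate 1. Adipocyte genes summed to 11400, 31872 and 10235 CPM in the cold libraries, the order of Rbp4. At 22 °C these sums were 22213, 26730 and 20301 CPM, and Rbp4 did not keep their order. The part of either cell type was not tested.

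With the 2 cold libraries of epididymis RNA left out, 1 cold library remained, and its fit assumes that it varies as the controls do. The change was then 0.15 for Rbp4 in place of -0.60, -0.28 for Aldh1a1 in place of 0.71, and -2.26 for Stra6 in place of 0.50, none of them called. Without cold replicate 2 instead, Rbp4 (-1.18), Aldh1a1 (1.03) and Lrat (1.77) were called. Rarb and Cyp26b1 differed by -0.15 ± 0.31 and -0.30 ± 0.41 with all libraries. Among the other pathway genes, 4 of 26 were called, with Rdh11 and Aldh1a7 among the higher ones and Bco2 lower.

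In liver, the main store of retinol, none of the 6 genes tested was called at either temperature, where 3.28% of 12028 genes were called at 10 °C and 3.38% of 11179 at 34 °C. Rbp4 was at 1624, 1434 and 1393 CPM and then 1289, 1520 and 1236 CPM in the cold experiment. In the warm experiment it was at 3170, 3147 and 3106 CPM and then 3130, 2861 and 3503 CPM, a change of 0.01 ± 0.09. Lrat differed by 0.04 ± 0.10 at 10 °C and 0.37 ± 0.23 at 34 °C, and Aldh1a1 by -0.11 ± 0.09 and -0.18 ± 0.14; Lrat was called at 34 °C without control replicate 1 (0.63).

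Cyp26a1 was the retinoid gene closest to a call in the cold liver. It was at 12.7, 16.1 and 22.4 CPM at 22 °C and 16.5, 37.5 and 22.7 CPM at 10 °C, a change of 0.58 ± 0.29 (adjusted p = 0.316 by the edgeR test), and was called without cold replicate 1 (0.81) or control replicate 3 (0.82). At 34 °C it was at 15.5, 7.41 and 9.11 CPM and 12, 28.9 and 8.26 CPM. It was called without warm replicate 3 (0.93). Its highest warm library, replicate 2, was also the highest for Cyp26b1 (9.25 CPM against 0.873 and 0.525), Lrat (11.5 CPM) and Aldh1a1 (1181 CPM). Cyp26b1 differed by 1.83 ± 1.02 at 34 °C from controls at 1.95, 0.681 and 0.368 CPM, and was not called. It was called without warm replicate 1 (2.28) or 3 (2.33), and without replicate 2 it fell below the count filter. None of the other pathway genes was called in liver, 27 tested at 10 °C and 26 at 34 °C, and 16 of the 27 read higher in the cold.

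In the cold brain comparison (2.71% of 14416 genes called, 2.44% lower), the 2 calls rested on the control library with liver genes. Rbp4 read 6.81, 1069 and 8.33 CPM at 22 °C and 7.51, 7.29 and 7.86 CPM at 10 °C, and its change of -5.58 was -0.02 without replicate 2 (adjusted p = 0.983 by the edgeR test). Cyp26a1 read 0.134, 27.9 and 0.536 CPM and then 0.299, 0.241 and 0.229 CPM, and Aldh1a1 145, 1256 and 136 CPM and then 116, 117 and 144 CPM. The 4 genes that are highest in liver were the ones far above the other controls in that library, and Stra6, which had no read in liver, was lowest there (4.67, 2.1 and 4.92 CPM). The 6 other pathway genes called in brain, Stra6l, Rdh7, Rdh16, Adh1, Adh4 and Aldh8a1, also had their only high control value there.

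At 34 °C no retinoid gene was called in brain, where 0.193% of 13979 genes were. Aldh1a1 was at 70.7, 73.4 and 65.1 CPM at 22 °C and 56.5, 58.1 and 54 CPM at 34 °C. The groups did not overlap (6.6% of genes had none), yet the change of -0.31 ± 0.06 was under the fold limit, and its adjusted p was 1 by the edgeR test. Rarb (22.4 ± 3.69 and 22.4 ± 3.39 CPM) and Cyp26b1 (13.9 ± 1.61 and 14.3 ± 2.17 CPM) differed by less than their spread. In hypothalamus no gene of the 8 was called (0.578% of 14526 genes were), with changes from -0.11 to 0.25. Its Aldh1a2 was at 6.21, 21.9 and 8.89 CPM at 22 °C, where the list of meninges genes summed to 36, 137 and 50.2 CPM. At 10 °C it was at 15.8, 11.7 and 8.76 CPM with sums of 102, 97.1 and 62.6 CPM, the same order. Without the 22 °C replicate 2 the differences of -0.01 for Aldh1a2 and 0.19 for Cyp26b1 became 0.66 and 0.63, both called.

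Bone marrow offered the largest groups, and Aldh1a1, known there as a marker of stem and progenitor cells, was the only retinoid gene well detected. It ranged from 128 to 171 CPM with a median of 157 at 22 °C, and from 167 to 205 CPM with a median of 178 at 10 °C, so the groups overlapped at their edges. The change of 0.24 ± 0.07 (n = 6 and 6) had an adjusted p of 0.0279 by the edgeR test and was not called at a fold of 1.18, where 1.29% of 12525 genes were called. Lrat had no read in any of the 12 libraries. In the same libraries the B cell genes summed to 468 to 643 CPM at 22 °C and 649 to 756 CPM at 10 °C.

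In spleen no retinoid gene was called (2.68% of 14113 genes were). Stra6 came closest, at 1.82, 1.69 and 2.03 CPM at 22 °C and 2.43, 2.9 and 2.96 CPM at 10 °C, without overlap (15.7% of genes had none), with a fold of 1.49 just under the limit (0.57 ± 0.21, adjusted p = 0.485 by the edgeR test), and it passed without cold replicate 1 (0.67) or control replicate 3 (0.64). Lrat was at 15.9, 14.4 and 15.6 CPM and then 20.8, 22.4 and 13.1 CPM. Aldh1a1 read 53.3, 113 and 132 CPM and then 56, 68.7 and 79.7 CPM, with controls that spread more than the groups differed and a call without control replicate 1 (-0.83). Aldh1a2 was called without control replicate 3 (0.87).

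In 3 tissues, retinoid genes were seen high and low together with marker genes of another cell type from library to library, a pattern chosen after its values were seen. It held within every group in ileum, and only in part in spinal cord and quadriceps. In ileum Stra6 followed 4 B cell genes. At 22 °C in the cold experiment the B cell sums were 11.7, 80.9 and 205 CPM, and Stra6 was at 0.408, 2.37 and 3.77 CPM. The 10 °C libraries had sums of 9.68, 53.4 and 146 CPM and Stra6 at 0.136, 0.724 and 3.63 CPM. In the warm experiment the controls had sums of 235, 57.9 and 332 CPM and Stra6 at 9.08, 1.8 and 11.6 CPM, and the 34 °C libraries 146, 5.01 and 6.32 CPM and Stra6 at 6.36, 0.0654 and 0.223 CPM.

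The order of Stra6 was thus the order of the B cell genes within each of the 4 ileum groups. In spleen at 22 °C the B cell sums were 1852 to 2144 CPM and Stra6 was at 1.69 to 2.03 CPM. The Stra6 difference at 34 °C (-1.76 ± 1.41, not called) had its 2 low warm libraries where the B cell genes were low, and it was -5.65 and called without warm replicate 1. The part of the B cell share in it was not tested.

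In spinal cord at 22 °C, Aldh1a2, Rbp4 and Stra6 varied with 5 genes of meninges, the membranes known to carry Aldh1a2. At 10 °C Aldh1a2 and Stra6 did so in part. The control libraries had meninges sums of 217, 45.6, 119, 185 and 216 CPM and Aldh1a2 at 16.3, 3.52, 7.85, 21.5 and 25.1 CPM. Rbp4 in the same controls was at 19.9, 3.73, 6.3, 19.5 and 23.6 CPM, and Stra6 at 9.78, 4.11, 4.07, 11.2 and 10.4 CPM. The 2 libraries with the lowest sums were the lowest for all 3 genes. The 10 °C libraries had sums of 152, 113, 89.2, 153 and 300 CPM and Aldh1a2 at 10.2, 8.94, 7.04, 8.21 and 14 CPM. The lowest library of each group was lowest for both the sum and Aldh1a2, while at 10 °C Rbp4 (7.24, 10.4, 11.9, 13.3 and 11.6 CPM) did not keep that order. Stra6 at 10 °C was at 3.64, 5.39, 2.65, 4.06 and 8.47 CPM. It was lowest and highest where the sum was, but did not keep the order between them.

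No retinoid gene was called in spinal cord, where 0.271% of 14383 genes were. Aldh1a2 differed by -0.61 ± 0.41 and Stra6 by -0.70 ± 0.36, and both were called without the control that was low in meninges genes (-0.86 and -0.87). Stra6 was also called without control replicate 3 (-0.87) and without cold replicate 5 (-1.01), the library highest in meninges genes. Aldh1a1 and Rarb were steady at 245 ± 14.2 and 244 ± 18.6 CPM and at 10.6 ± 0.699 and 11.3 ± 0.598 CPM. Control replicates 2 and 3, lowest in meninges genes, were also lowest for Aldh1a1, at 223 and 237 CPM where the others read 250 to 257. At 10 °C Aldh1a1 did not keep that order, and Rarb kept it in neither group.

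In quadriceps Rbp4 mostly followed 6 adipocyte genes, though control C2 read above M1 and M2 with a lower adipocyte sum. Its 22 °C libraries M1 to M3 and C1 to C3 were at 3.87, 4.91, 1.58, 8.65, 6.46 and 2.46 CPM, with adipocyte sums of 313, 315, 175, 468, 297 and 204 CPM. The 10 °C libraries were at 10.3, 13.3 and 4.8 CPM with sums of 593, 718 and 259 CPM, and the 34 °C libraries at 3.54, 1.58 and 6.07 CPM with sums of 280, 153 and 297 CPM. The 2 cold libraries with the most Rbp4 were those with the most adipocyte RNA of all 12. The change at 10 °C was 1.02 ± 0.48 (adjusted p = 0.406 by the edgeR test), not called where 3.3% of 11803 genes were. It was called with the 3 same-named controls only (1.46), without cold replicate M3 (1.33), without TMM (1.17), and with edgeR's exact test or either other filter. It was not called with the 3 other-named controls (0.68), without the libraries of pancreas and epididymis RNA (0.90) or by DESeq2. At 34 °C it was -0.32 ± 0.52, and no retinoid gene was called (1.34% of genes were).

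Cyp26b1 in quadriceps was at 32.9 CPM in the 22 °C library M1, which held the pancreas genes, and at 7.41, 8.51, 3.96, 1.19 and 0.785 CPM in the other controls. Its change was -0.85 ± 0.91 at 10 °C and 0.15 with the libraries of pancreas and epididymis RNA left out. At 34 °C it was -1.40 ± 0.95 and then -0.35. With the 3 controls whose names start with M alone it was called at both temperatures (-1.68 and -2.22), and with the 3 whose names start with C alone the sign turned, to 1.33 at 10 °C and 0.78 at 34 °C, without a call. The controls named M include the library with pancreas genes. Among the other pathway genes of quadriceps, 1 of 18 was called at 10 °C, Aldh1a7 with 1.86 ± 0.51, and none of 18 at 34 °C.

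**Figure D5:**
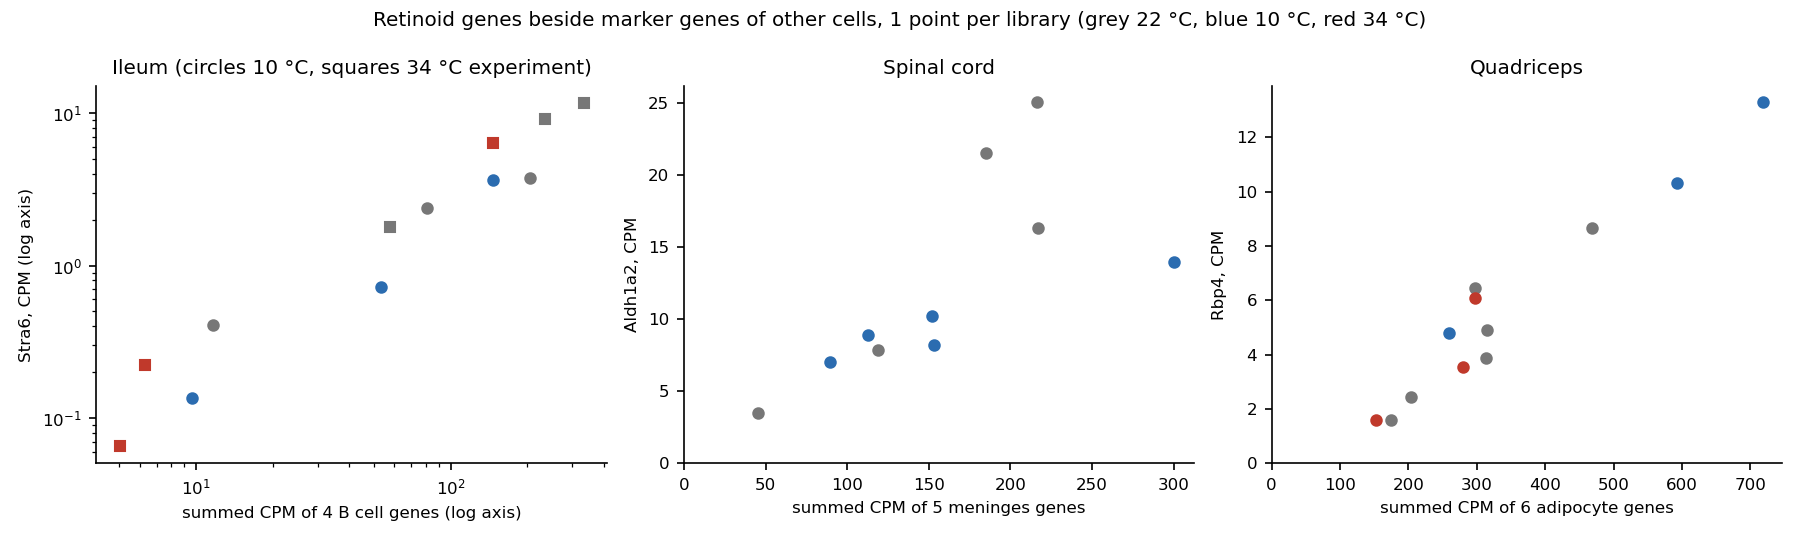
Level of 1 retinoid gene (CPM) against the summed CPM of marker genes of another cell type, 1 point per library: Stra6 and B cell genes in ileum (both axes log), Aldh1a2 and meninges genes in spinal cord, Rbp4 and adipocyte genes in quadriceps; grey 22 °C, blue 10 °C, red 34 °C. In ileum Stra6 runs from 0.0654 to 11.6 CPM as the B cell sum runs from 5.01 to 332 CPM.

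Whether the response of a gene differed between tissues was tested by an interaction of tissue and temperature over all genes. In the 4 tissues with their own controls at 34 °C, Rbp4 passed (adjusted p = 0.00511 by the edgeR test, where 15.5% of genes did), with a change of -1.87 in iBAT beside 0.01 in liver, -0.10 in ileum and 0.09 in brain. The other 7 genes had adjusted p-values of 0.391 and above. In the 8 tissues at 10 °C, where 16.2% of genes passed, so did Rbp4 (0.00959), Lrat (0.0408) and Cyp26a1 (0.0457), but not without the liver-marked brain library (0.0649, 0.432 and 0.472, where 16.5% of genes passed). Rarb did not pass in either set (0.633 and 0.422), so its call in warm iBAT is not shown to differ from the other warm tissues.

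Summed over tissues, the other 36 pathway genes were called in 28 of 258 tests at 10 °C (14 higher, 14 lower), where 4.94% of all tests were called. Of these, 4 had an adjusted p under 0.05 by the edgeR test, all in iBAT and ingSAT. They were 2 of 20 tested in iBAT, where 1122 of 12793 genes passed, and 2 of 23 in ingSAT, where 926 of 13977 did. At 34 °C the 36 genes were called in 12 of 112 tests (7 higher, 5 lower), where 5.33% were, and 8 had an adjusted p under 0.05 by the same test. These 8 were all in iBAT, where 15.6% of all genes passed the adjusted limit. Without the libraries that stood apart in brain, pgVAT and quadriceps, the counts at 10 °C were 7 for the 8 genes and 24 for the others, and at 34 °C they stayed at 5 and 12.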

How the data were processed

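Whole tissues of mice were sequenced as bulk mRNA. The authors deposited raw counts per gene, whole numbers without scaling; the labels' processing notes name STAR 2.5.3a, Picard 1.141, HTSeq 0.6p1 and mm10, and the methods name other versions of STAR and HTSeq. All 106 libraries were mapped to 31 conditions by their labels, and temperature was taken from titles and treatment labels because a protocol field gives 34 °C for every sample. In R 4.3.3, edgeR 4.0.16 normalised each comparison by TMM, kept genes with an average log2 CPM above 0 and applied the quasi-likelihood test, with groups as the only term. The limits for a call were a fold above 1.5 and p of 0.05 or less before adjustment. Adjusted p-values are Benjamini-Hochberg values over all genes tested. Quadriceps was 1 fit of its 3 groups. DESeq2 1.42.0 was an alternative. The fit was tested on simulated data. The 8 genes, the pathway list and the 24 marker lists were chosen with earlier results of these data known; pathway genes were named at an adjusted p under 0.05 without overlap, and others named were chosen after their values were seen. Gene positions and exon lengths came from GENCODE M21. Depth limits low genes: 1 read was the whole signal of Stra6 in several libraries. Same-numbered libraries did not deviate together in every pair of any tissue, so no pairing was used. Most libraries pool animals, so p-values measure the spread between these libraries. Some results, among them the genes most like Aldh1a2 by profile, are not reported here.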

Additional observations from a re-analysis of the deposited data

Results flagged for a closer look

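Of the 40 groups of 4 to 10 libraries examined, 4 held a library far from the others. The limit used gives about 1 in 20 by chance for normally spread values. Genes of a few reads are not spread that way, so the count of 4 cannot be set against that rate. Stra6 in bone marrow had a single read in 1 of 6 libraries at 22 °C (0.0588 CPM) and in 1 of 6 at 10 °C (0.0536 CPM), with 0 in the rest. Aldh1a1 in cold spinal cord had 1 low library of 211 CPM beside a median of 248 CPM. Cyp26b1 in the 22 °C quadriceps group had 1 library of 32.9 CPM beside a median of 5.68 CPM, and that library also held pancreas genes.

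The change with temperature differed between the 8 tissues at 10 °C for Rbp4 (adjusted p = 0.00959), Lrat (0.0408) and Cyp26a1 (0.0457), and between the 4 tissues at 34 °C for Rbp4 (0.00511), by edgeR's quasi-likelihood test of the interaction. The values at 10 °C rest on the brain control library with liver genes.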

How the results depend on the processing

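With an adjusted p under 0.05 in place of the unadjusted limit, the calls of the 8 genes at 10 °C went from 9 to 0 and at 34 °C from 5 to 3, and those of the other pathway genes at 10 °C from 28 to 4. DESeq2 gave 7 and 5 calls for the 8 genes, and edgeR's exact test 12 and 5. Calls over all genes moved with the setting too. In cold brain they were 391 of 14416 in the main fit, 776 by the exact test and 480 of 16865 by DESeq2. With single libraries left out they ran from 38 to 1075 in cold brain and from 393 to 3517 in cold pgVAT. The counts of the retinoid genes are read beside such shifts. With each library left out in turn, the calls ran from 7 to 12 at 10 °C and from 3 to 7 at 34 °C for the 8 genes, and 22 to 36 and 9 to 15 for the others; the value of 3 came without the ileum 22 °C replicate 1 or the ileum 34 °C replicate 2. The interaction over 8 tissues lost Rbp4 (0.0649), Lrat (0.432) and Cyp26a1 (0.472) without the brain 22 °C replicate 2, an alternative chosen after seeing the data, as were those on quadriceps controls and on libraries that stood apart. Aldh1a2 in hypothalamus turned from -0.01 to 0.66, with a call, without the 22 °C replicate 2 (range over single libraries left out -0.31 to 0.66), whose meninges genes summed to 137 CPM against 36 and 50.2 in the other controls. With the replicate number as a block, the 8 genes had 7 calls and the others 24 at 10 °C; the numbers do not pair these samples. Of 1146 alternatives of single genes, 42 lost a call and 37 gained one. In 63 of the rest the sign turned without a call in either fit, as for Cyp26b1 in quadriceps. The planned split of quadriceps controls by title number was not run, since the columns do not carry those numbers. The filter on average CPM set which genes were tested; depth limits genes of a few reads, such as Stra6 in bone marrow.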
